A study of Mus musculus with 9 samples.

Results

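The caveolin and cavin genes were followed through 3 populations of cells sorted from mouse lung. The members were the 5 listed genes of these 2 families, taken by symbol from the count table: the caveolins Cav1 and Cav2 and the cavins Ptrf, Sdpr and Prkcdbp, which are the older symbols of Cavin1, Cavin2 and Cavin3. They are 5 of 19348 gene symbols, and all 5 were among the 15550 genes that passed the filter on low counts. All 9 libraries share the strain C57BL/6J and the genotype Col1_GFP;Foxf1_tdTomato, so every population carried both transgenes: a green one that reports type I collagen and a red one that reports the forkhead factor Foxf1. DBL cells expressed both reporters (replicates 1, 3 and 4), TDonly cells the Foxf1 reporter alone (replicates 1, 2 and 3) and ColGFP cells the collagen reporter alone (replicates 1, 2 and 3). The labels and the series text give no sex, age, reporter promoter, sort gate or number of animals. Whether replicates are separate animals is thus unknown, and p-values here reflect only how these libraries vary, which may be technical.

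Caveolae are small flask-shaped pits of the plasma membrane. Caveolin-1, with caveolin-2 as its partner, inserts into the inner leaflet of the membrane, and the cavins form the coat around the bulb, with cavin-1 needed for caveolae to form in all cells studied. They are abundant in endothelium, alveolar type 1 epithelium, fibroblasts, smooth muscle and adipocytes, and serve in lipid traffic, in the control of nitric oxide synthase and as a membrane reserve under stretch. In mice, loss of Cav1 removes caveolae from the lung and thickens its alveolar walls.

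Total counts were 17820969 to 26147475 per library, with 17116 to 17753 genes detected. The replicate 1 libraries have lower sequencing core numbers than the other 6 and stood apart from them: within a population the chi-square per degree of freedom was 53.8 to 98.8 for pairs with replicate 1, against 5.32 to 14.6 for the other pairs. Values within the higher core numbers (2 libraries per population) therefore stand beside the results they touch, and the lower core numbers hold 1 library per population, which allows a difference and no test. The Foxf1 reporter's gene, listed as Foxf1a, had 113.3, 87.33 and 102.8 CPM in DBL, 279.4, 230.7 and 229.4 CPM in TDonly and 61.94, 62.55 and 54.52 CPM in ColGFP. Col1a1 had 9539 to 13220 CPM in DBL, 372.7 to 1566 CPM in TDonly and 4939 to 9593 CPM in ColGFP. Both sort genes were thus read in every population.

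Cav1 and Cav2 lie next to each other on chromosome 6 (mm10, GENCODE M21 annotation), Cav2 at 17281185 to 17289115 and Cav1 at 17306335 to 17341452, both on the plus strand with 17219 bp between them. Ptrf lies on chromosome 11 at 100956733 to 100970887 on the minus strand. Sdpr lies on chromosome 1 at 51289126 to 51302960 on the plus strand, and Prkcdbp on chromosome 7 at 105480083 to 105482300 on the minus strand. An annotated antisense gene, Gm15581, spans both caveolins, 9330175M20Rik spans Sdpr on the opposite strand, and Gm45667 overlaps the start of Prkcdbp. Use of strand in counting is not stated, so reads shared with an overlapping gene cannot be told apart from those of a member. In its own row, 9330175M20Rik had at most 0.305 CPM in any library, where Sdpr had 184.7 CPM or more; Gm15581 and Gm45667 were not analysed here.

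The promoters of the 4 members with an entry are shown, so that their letters can be compared. These 4 members had the same order of population means, with DBL and TDonly nearly level for Ptrf. Each promoter runs 5′ to 3′ in the direction of the gene over 300 bases, 250 before and 50 after the first annotated start (RefSeq, GRCm38.p6). For Cav1, Cav2 and Sdpr this start is also the GENCODE one. The Ptrf window differs in that it lies wholly inside the GENCODE gene, whose 5′ end is at 100970887. Capitals mark GGAAG, the form of the ETS core searched here, or its reverse complement, ETS factors being regulators of endothelial genes. Cav1 is at chr6:17306085-17306384 (plus strand), Cav2 at chr6:17280935-17281234 (plus), Ptrf at chr11:100970568-100970867 (minus) and Sdpr at chr1:51288876-51289175 (plus).
Cav1: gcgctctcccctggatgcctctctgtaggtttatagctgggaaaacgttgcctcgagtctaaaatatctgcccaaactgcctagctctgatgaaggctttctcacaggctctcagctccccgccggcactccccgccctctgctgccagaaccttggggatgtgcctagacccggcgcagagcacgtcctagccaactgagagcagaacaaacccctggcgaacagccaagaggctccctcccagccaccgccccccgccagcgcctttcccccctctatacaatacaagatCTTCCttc
Cav2: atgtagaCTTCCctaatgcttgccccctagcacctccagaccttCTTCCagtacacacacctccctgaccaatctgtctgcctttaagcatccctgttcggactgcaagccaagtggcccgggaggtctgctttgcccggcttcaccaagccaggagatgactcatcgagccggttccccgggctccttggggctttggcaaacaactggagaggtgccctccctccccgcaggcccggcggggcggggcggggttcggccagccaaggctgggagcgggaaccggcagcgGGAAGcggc
Ptrf: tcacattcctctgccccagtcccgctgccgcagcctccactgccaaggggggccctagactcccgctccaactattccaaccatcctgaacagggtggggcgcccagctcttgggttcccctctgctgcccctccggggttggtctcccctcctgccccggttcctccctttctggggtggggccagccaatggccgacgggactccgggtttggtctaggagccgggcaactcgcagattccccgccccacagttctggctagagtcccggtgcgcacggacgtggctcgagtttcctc
Sdpr: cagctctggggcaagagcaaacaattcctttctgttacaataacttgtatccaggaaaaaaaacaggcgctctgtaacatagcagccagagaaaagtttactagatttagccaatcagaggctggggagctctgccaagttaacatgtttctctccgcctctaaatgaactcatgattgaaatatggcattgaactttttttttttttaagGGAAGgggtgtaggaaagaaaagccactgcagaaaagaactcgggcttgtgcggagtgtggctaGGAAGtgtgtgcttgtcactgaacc
TAAACA, the form of the forkhead core searched here on both strands, was in none of these windows, and 13.4% of 32851 promoters of this length hold it. Other forms were not counted, and the letters CAAACA do occur in the Cav2 and Sdpr windows. GGAAG had 1 match in Cav1, 42 bases after the start, 3 in Cav2, 0 in Ptrf and 2 in Sdpr, and 71.4% of all promoters hold at least 1. The shorter GGAA was not counted, and its reverse complement TTCC does occur in the Ptrf window. The GC box GGGCGG, overlapping matches included, had 2 matches in Cav1, 2 in Cav2, 1 in Ptrf and 0 in Sdpr, and was in 35.7% of promoters. The TATA box TATAAA was matched once, in Cav1 on the reverse strand, and was in 13.6% of promoters. CCAAT was in Cav2, Ptrf and Sdpr and in 37.4% of promoters. The Cav1, Cav2 and Ptrf windows had 59.3, 64.3 and 66.7% G and C, and the Sdpr window 43.3%, against a median of 52.7% over all promoters. Cav1 and Ptrf also have a second annotated start, whose windows are not shown. The second Cav1 window held 0 matches to each of these motifs, and the second Ptrf window had the same counts as the first. All of these matches describe letters in a window and were not tied to any binding.

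Transcripts of both caveolins and of 2 cavins were highest in TDonly, the population with the Foxf1 reporter alone, and lowest in ColGFP. Cav1 was 3.93-fold, Cav2 5.24-fold and Sdpr 3.47-fold higher in TDonly than in ColGFP. Ptrf was nearly level between DBL and TDonly and lower in ColGFP. Prkcdbp departed from the other 4: it was higher in DBL than in TDonly. Levels of single genes are CPM, read counts scaled to library size with TMM (trimmed mean of M values) factors, and differences are log2 fold changes with their standard error (SE) from edgeR's quasi-likelihood test. A gene is called at an adjusted p under 0.05, Benjamini-Hochberg over all 15550 genes.

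Cav1, the scaffold protein of caveolae, had 670.9, 810.2 and 676.1 CPM in the DBL libraries, 1282, 1408 and 1348 CPM in TDonly and 404.5, 332 and 292.1 CPM in ColGFP. The 3 populations did not overlap, with DBL between the others. Its log2 fold change was 1.07 ± 0.14 (SE) in DBL against ColGFP (edgeR adjusted p = 0.000962), -0.90 ± 0.14 in DBL against TDonly (adjusted p = 0.00113) and 1.97 ± 0.15 in TDonly against ColGFP (adjusted p = 5.62e-06). Within the higher core numbers these values were 1.27, -0.85 and 2.12, and between the single libraries of the lower core numbers 0.73, -0.93 and 1.66.

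Cav2, which needs caveolin-1 to reach the membrane, had 127, 218.7 and 126.9 CPM in DBL, 293.3, 349.7 and 279.5 CPM in TDonly and 79.07, 50.39 and 46.48 CPM in ColGFP. DBL replicate 3 stood well above the other 2 DBL libraries, yet the populations did not overlap. The log2 fold change was 1.43 ± 0.26 in DBL against ColGFP (edgeR adjusted p = 0.00561), -0.96 ± 0.26 in DBL against TDonly (adjusted p = 0.0184) and 2.39 ± 0.27 in TDonly against ColGFP (adjusted p = 6.98e-05). The DBL against TDonly call was lost without DBL replicate 1 (adjusted p = 0.0565), DBL replicate 4 (0.0782) or TDonly replicate 2 (0.0613), at log2 fold changes of -0.83, -0.79 and -0.86. Within the higher core numbers Cav2 had 1.85, -0.82 and 2.67 in these 3 contrasts, and between the lower-numbered libraries 0.68, -1.21 and 1.89.

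Ptrf encodes cavin-1, the coat subunit that all cavin complexes contain. It had 774.6, 801 and 837.5 CPM in DBL, 839, 866.8 and 900 CPM in TDonly and 603.1, 669.2 and 601.7 CPM in ColGFP. The ColGFP libraries lay below all others, and the highest DBL library lay just under the lowest of TDonly. Its log2 fold change was 0.48 ± 0.10 in TDonly against ColGFP (edgeR adjusted p = 0.00312), 0.36 ± 0.10 in DBL against ColGFP (adjusted p = 0.0344) and -0.11 ± 0.10 in DBL against TDonly, which was not called (adjusted p = 0.429). The DBL against ColGFP call was close to the threshold. It was lost when any of 7 libraries was left out, with adjusted p of 0.0589 to 0.124: all but TDonly replicate 1 and ColGFP replicate 1. Within the higher core numbers the 3 values were 0.45, 0.38 and -0.07, and between the lower-numbered libraries 0.48, 0.36 and -0.12.

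Sdpr encodes cavin-2, a phosphatidylserine-binding cavin that shapes caveolae in lung endothelium of mice. It had 355.2, 360.5 and 310.7 CPM in DBL, 714, 741.6 and 742.8 CPM in TDonly and 245.6, 204.1 and 184.7 CPM in ColGFP. The populations did not overlap, and TDonly lay far above both others. Log2 fold changes were 0.69 ± 0.12 in DBL against ColGFP (edgeR adjusted p = 0.0046), -1.10 ± 0.12 in DBL against TDonly (adjusted p = 0.000222) and 1.79 ± 0.13 in TDonly against ColGFP (adjusted p = 4.02e-06). They were 0.80, -1.10 and 1.91 within the higher core numbers, and 0.53, -1.01 and 1.54 between the lower-numbered libraries.

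Prkcdbp encodes cavin-3, a protein kinase C delta-binding cavin that joins cavin-1 in the coat. It had 56.05, 42.63 and 52.42 CPM in DBL, 36.32, 21.39 and 21.5 CPM in TDonly and 30.68, 50.09 and 47.36 CPM in ColGFP. TDonly lay below DBL, while ColGFP overlapped both. It was higher in DBL than in TDonly, with a log2 fold change of 0.93 ± 0.25 (edgeR adjusted p = 0.0178), a call lost without TDonly replicate 2 or 3 (adjusted p = 0.0674 for each, log2 fold changes of 0.80). DBL against ColGFP gave 0.24 ± 0.24 (adjusted p = 0.597). TDonly against ColGFP gave -0.69 ± 0.25 (adjusted p = 0.0436), and this call depended on single libraries. It was lost when any 1 of 7 libraries was left out (adjusted p of 0.051 to 0.139), the exceptions being TDonly replicate 1 and ColGFP replicate 1, and when library totals served as the scale (0.0597). The core numbers split it: within the higher ones the log2 fold change was -1.21 (adjusted p = 3.67e-08), while between the 2 lower-numbered libraries it was 0.24, in the opposite direction. For DBL against ColGFP the values were -0.02 and 0.87, and for DBL against TDonly 1.19 and 0.63.

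**Figure D1:**
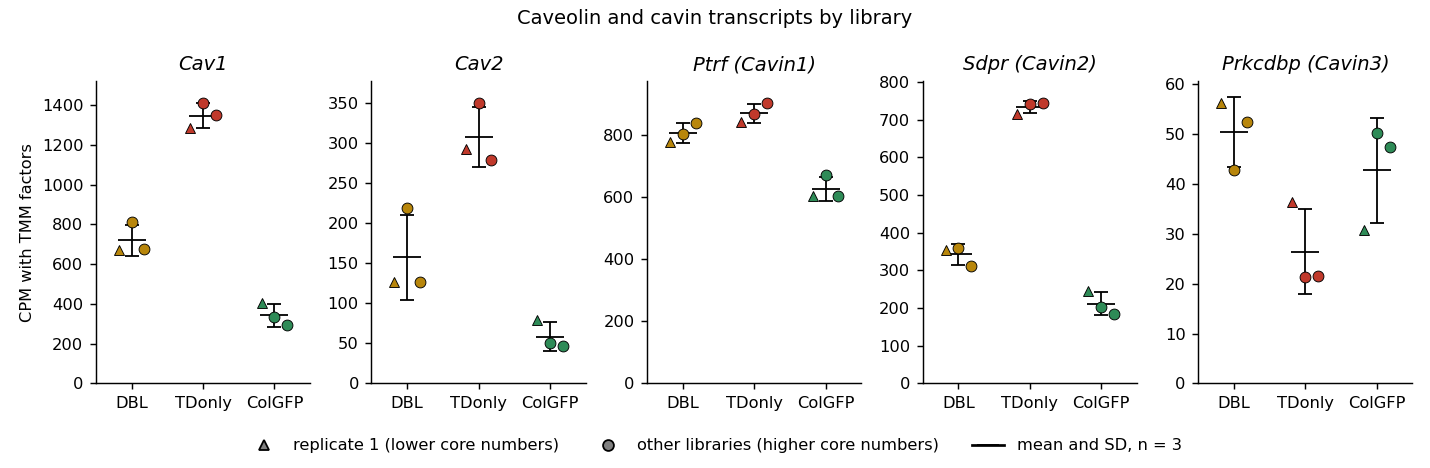
Levels of the 5 caveolin and cavin transcripts, in CPM with TMM factors (vertical axes, each from 0), in the DBL, TDonly and ColGFP libraries. Triangles are replicate 1 libraries and circles the others, and bars give the mean and SD of 3 libraries; Cav1, Cav2 and Sdpr form 3 separate steps, while Prkcdbp in ColGFP ranges from 30.68 to 50.09 CPM, with its triangle lowest.

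Counted over the members, 4 of 5 rose in DBL against ColGFP and Prkcdbp was not called, where 14.5% of the 15550 tested genes were called, 8.04% higher and 6.47% lower. In DBL against TDonly 1 of 5 was called higher and 3 lower, where 29.9% of genes were called, 17.3% higher and 12.6% lower. In TDonly against ColGFP 4 rose and 1 fell, where 45.5% of genes were called, 21.6% higher and 24.0% lower. With replicate number added to the fit as a block, 3 members were called higher in DBL against ColGFP. In DBL against TDonly 0 were then higher and 2 lower, and in TDonly against ColGFP 4 were higher and 0 lower. Over all genes that fit called 1581, 3594 and 6483 in the 3 contrasts. The libraries of the contrasted populations did not overlap for 4 members in DBL against ColGFP, for 5 in DBL against TDonly and for 4 in TDonly against ColGFP, as they did not for 33.3, 47.0 and 56.1% of all genes. The median log2 fold change of the members was 0.69, -0.90 and 1.79 in the 3 contrasts, beside -0.003, -0.04 and 0.02 over all tested genes. The 3 contrasts share libraries and are not independent of each other.

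**Figure D2:**
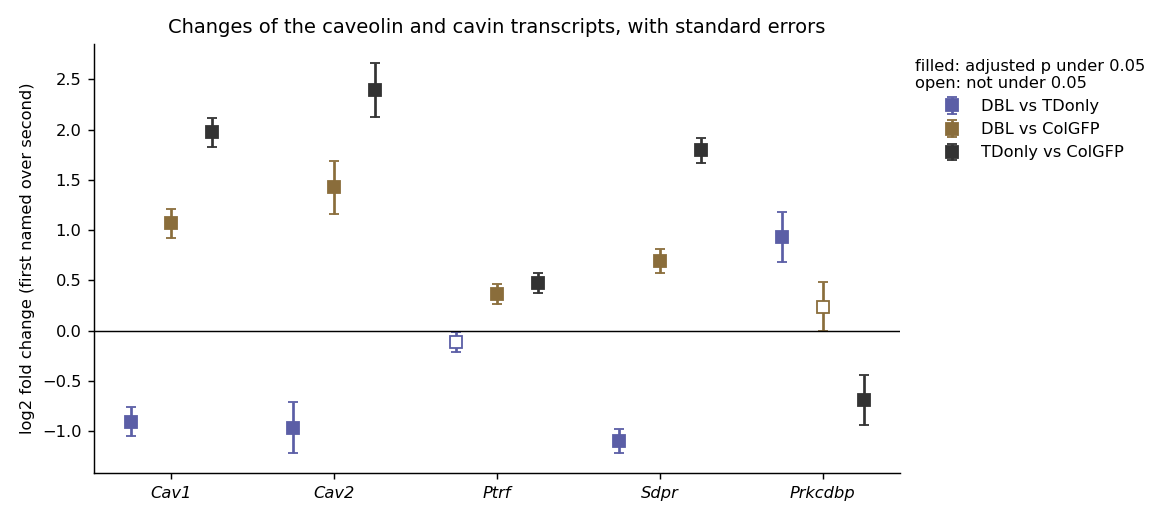
Log2 fold changes of the 5 members (vertical axis, first named population over the second) with their standard errors in the 3 contrasts. Filled squares passed an adjusted p of 0.05 and open ones did not; Cav1, Cav2 and Sdpr lie between 1.79 and 2.39 in TDonly against ColGFP and near -1 in DBL against TDonly, and Prkcdbp has the opposite signs.

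Placed on a line from the ColGFP mean (0%) to the TDonly mean (100%), the DBL mean stood at 37.5% for Cav1, 39.7% for Cav2 and 25.1% for Sdpr, but at 73.7% for Ptrf. Single DBL libraries ranged from 32.7 to 46.6% for Cav1, from 27.4 to 64.3% for Cav2, from 19 to 28.6% for Sdpr and from 61.5 to 87.3% for Ptrf. The DBL mean of Prkcdbp lay outside the line, at -47%, with single DBL libraries from -81.8 to 0.487%. For Prkcdbp the ColGFP and TDonly libraries overlapped, and DBL against ColGFP was not called (edgeR adjusted p = 0.597). The summed markers of endothelium stood at 30.7%, with 27.1 to 37.6% in single DBL libraries and 27.3 to 34.9% over the 12 genes. Ptrf in DBL therefore lay above the place that the endothelial markers took in each library, and the ranges of Cav1, Cav2 and Sdpr overlapped it.

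Per kilobase of annotated exon, which allows levels of different genes to be compared, Cav1 in TDonly was the most abundant member at 390.8 ± 18.3 CPM per kb (SD, n = 3). Ptrf (242.1 ± 8.52) and Sdpr (239.9 ± 5.34) followed in TDonly, closer to each other than their spread, and Cav2 (92.2 ± 11.2) and Prkcdbp (15.9 ± 5.17) came last. In DBL, Ptrf (224.3 ± 8.81 CPM per kb) and Cav1 (208.8 ± 22.9) differed by less than their spread, above Sdpr (112 ± 8.95), Cav2 (47.2 ± 15.9) and Prkcdbp (30.3 ± 4.18). In ColGFP, Ptrf led at 174.1 ± 10.8 CPM per kb, before Cav1 (99.6 ± 16.6), Sdpr (69.2 ± 10.2), Prkcdbp (25.7 ± 6.32) and Cav2 (17.6 ± 5.34), the last 2 in overlap. With the longest transcript as length instead, Cav1 (261.8 CPM per kb) came before Ptrf (230.4) in DBL, and the order in TDonly and ColGFP did not change. Summed, the 5 members had 622.6 ± 39.2 CPM per kb in DBL, 980.9 ± 30.7 in TDonly and 386.2 ± 27.4 in ColGFP.

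The make-up of the family differed with its level. Cav1 held 33.5% of the summed CPM per kb in DBL, 39.8% in TDonly and 25.7% in ColGFP, whereas Ptrf held 36.1%, 24.7% and 45.2%. By the longest transcript the shares were 37.8, 44.3 and 29.7% for Cav1 and 33.3, 22.5 and 42.6% for Ptrf. Sdpr held 24.5% in TDonly and close to 18% in each of the others. The Ptrf count was 115, 98.9 and 124% of the Cav1 count in the DBL libraries, 65.4, 61.6 and 66.8% in TDonly and 149, 202 and 206% in ColGFP. This ratio did not overlap between any 2 populations. The exact two-sided permutation test gave p = 0.1 for each pair of populations, the smallest that 3 against 3 libraries allow (0.15 after adjustment over 12 ratio comparisons). The Sdpr count was 45.8, 45 and 37.1% of the Ptrf count in DBL, 85.1, 85.6 and 82.5% in TDonly and 40.7, 30.5 and 30.7% in ColGFP. TDonly stood apart and the other 2 populations overlapped. The Cav2 count was 18.8 to 27% of the Cav1 count in DBL, 20.7 to 24.8% in TDonly and 15.2 to 19.5% in ColGFP, and only TDonly and ColGFP did not overlap.

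**Figure D3:**
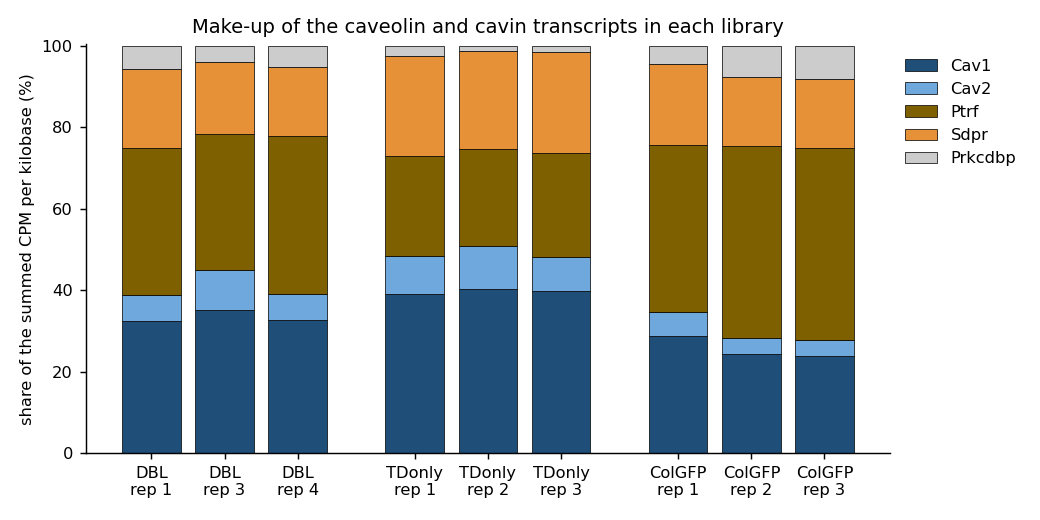
Share of each member in the summed CPM per kilobase of the 5 genes (vertical axis, in percent) in each of the 9 libraries, DBL at left, TDonly in the middle and ColGFP at right. Cav1 is the largest part of every TDonly bar, at 39.2 to 40.4%, and Ptrf the largest of every ColGFP bar, at 41.2 to 47.2%.

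The muscle members of both families were read at low levels and moved apart. Cav3, the caveolin of striated and smooth muscle, had 2.10, 0.99 and 1.45 CPM in DBL, 0.117, 0.240 and 0.352 CPM in TDonly and 3.31, 4.17 and 3.47 CPM in ColGFP, the reverse of the order of Cav1. Its log2 fold change in TDonly against ColGFP was -3.93 ± 0.43 (edgeR adjusted p = 5.72e-05). Murc, the symbol used here for cavin-4 of striated muscle, had 1.14, 1.49 and 1.41 CPM in DBL, 2.923, 3.004 and 3.077 CPM in TDonly and 0.939, 0.242 and 0.601 CPM in ColGFP, the same order as Sdpr. That contrast gave 2.29 ± 0.39 for Murc (adjusted p = 0.00096). Markers of smooth muscle moved with Cav3: 8 of 8 were lower in TDonly than in ColGFP, where 24.0% of all tested genes were lower. Their sums were 310.4 to 413.9 CPM in TDonly and 1816 to 2940 CPM in ColGFP. The 10 fibroblast markers were lower in that contrast too. Of 7 striated muscle markers, 1 (Actc1) was called there, as lower, and 0 in each of the other contrasts. The part of these markers in the result was not tested.

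Proteins of the caveola neck and shape were mixed: of 12 genes 2 were higher and 1 lower in DBL than in ColGFP, 4 higher and 5 lower in DBL than in TDonly, and 5 higher and 4 lower in TDonly than in ColGFP, with median log2 fold changes of -0.06, -0.18 and -0.39. These are 25, 75 and 75% of the list, beside 14.5, 29.9 and 45.5% of all tested genes. Ehd4, a membrane-bound ATPase of the EHD family, moved most among those that rose in TDonly against ColGFP. It had 489.4, 406 and 403.9 CPM in DBL, 1227, 1115 and 1168 CPM in TDonly and 163, 123 and 109.4 CPM in ColGFP, an 8.88-fold difference of TDonly over ColGFP (log2 3.15 ± 0.17, edgeR adjusted p = 7.76e-07). Ehd2, the family member that rings the caveola neck, had 434.2 to 465.3 CPM in DBL, 528.1 to 572 CPM in TDonly and 450.6 to 469.8 CPM in ColGFP, with a log2 fold change of 0.26 in TDonly against ColGFP (adjusted p = 0.0341). Pacsin2, which bends the neck membrane, and Dnm2, the ubiquitous dynamin that cuts vesicles free, were higher in TDonly than in ColGFP by 0.55 (adjusted p = 0.000176) and 1.02 (1.12e-05). Flna, the actin crosslinker that ties caveolae to stress fibres, ran the other way, with 1825 to 2034 CPM in DBL, 870.2 to 887.1 CPM in TDonly and 2611 to 3564 CPM in ColGFP (-1.76 in TDonly against ColGFP, adjusted p = 1.02e-05). Dnm1, Ror1 and Pacsin3 were also lower in TDonly than in ColGFP, by log2 values of -3.08, -1.39 and -1.36.

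Genes of proteins that reside in endothelial caveolae or bind caveolin were called in 83.3, 91.7 and 83.3% of cases in DBL against ColGFP, DBL against TDonly and TDonly against ColGFP, where 14.5, 29.9 and 45.5% of all tested genes were called. Kdr, a receptor of vascular endothelial growth factor, is in this list and is also 1 of the 12 endothelial markers, of which 100% were called in each contrast. Of the 12 genes in the present list, 8 were higher and 2 lower in DBL than in ColGFP, 3 higher and 8 lower in DBL than in TDonly, and 8 higher and 2 lower in TDonly than in ColGFP, with median log2 fold changes of 1.65, -1.30 and 3.01. Nos3, the endothelial nitric oxide synthase that caveolin-1 holds inactive, had 40.95, 26.09 and 29.2 CPM in DBL, 116.5, 86.76 and 86.25 CPM in TDonly and 7.155, 5.868 and 3.049 CPM in ColGFP. Plvap, which forms the diaphragm across the caveola mouth, had 264.9 to 556.6 CPM in DBL, 847.8 to 1265 CPM in TDonly and 51.52 to 77.19 CPM in ColGFP. Their log2 fold changes in TDonly against ColGFP, 4.17 ± 0.31 and 3.98 ± 0.33 (edgeR adjusted p = 6.01e-06 and 1.15e-05), were larger than those of any of the 5 members. The lower genes were Trpc1, a calcium-permeable channel, and Atp2b4, a plasma membrane calcium pump, at -2.87 and -2.10 in TDonly against ColGFP. The insulin receptor gene Insr was not called in any of the 3 contrasts (adjusted p of 0.103 to 0.336).

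Genes of 2 other kinds of membrane domain were counted in the same way. Of 18 genes of the clathrin coat and its adaptors, 1 (Cltb, a clathrin light chain) was called in DBL against ColGFP, where it was higher, 2 were higher and 2 lower in DBL than in TDonly, and 5 higher and 3 lower in TDonly than in ColGFP, with medians of 0.13, -0.04 and 0.20. The shares called, 5.56, 22.2 and 44.4%, were at or below the 14.5, 29.9 and 45.5% of all tested genes. Cltc, the clathrin heavy chain, had 583.5 to 633.9 CPM in DBL, 626.5 to 653.1 CPM in TDonly and 560.3 to 609.8 CPM in ColGFP and was not called (adjusted p of 0.297 to 0.809). Flotillins mark other membrane domains: Flot2 was higher in DBL than in TDonly (0.68, adjusted p = 0.000578) and lower in TDonly than in ColGFP (-0.67, adjusted p = 0.000286), and Flot1 was not called in any contrast (adjusted p of 0.457 to 0.804). Among 4 kinases that phosphorylate caveolin-1, Yes1 was higher in TDonly than in ColGFP (1.37, adjusted p = 1.98e-05), and Src (-1.35) and Abl1 (-0.33) were lower. Fyn was not called in any contrast (adjusted p of 0.453 to 0.703).

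**Figure D4:**
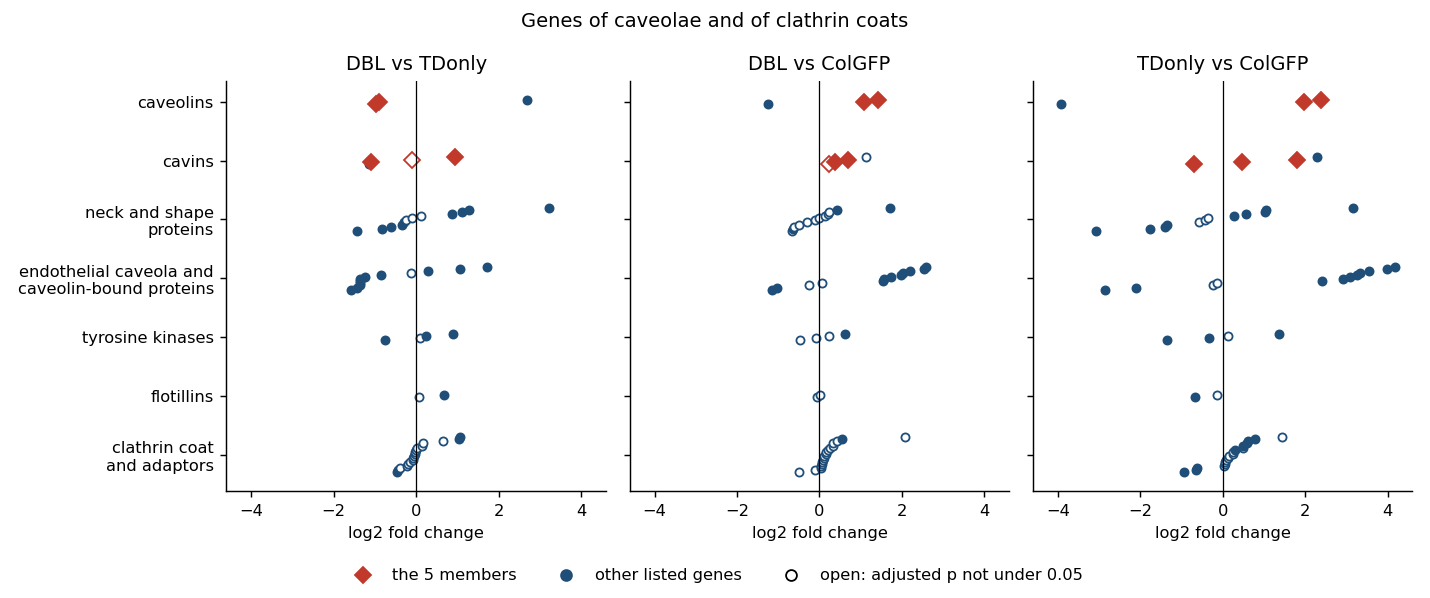
Log2 fold changes (horizontal axes) of the listed genes in the 3 contrasts, 1 point per gene, with the 5 members as diamonds and open symbols for an adjusted p not under 0.05. In TDonly against ColGFP the endothelial caveola genes reach 4.17, while the clathrin genes that were called lie between -0.93 and 0.79.

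Besides the pair itself, 5 tested genes start within 500 kb of Cav1. Met, a receptor kinase gene whose start is 157 kb from that of Cav1, averaged 61.3 CPM in DBL, 71.0 in TDonly and 61.4 in ColGFP and was not called in any contrast (adjusted p of 0.361 to 0.996). Capza2, an actin-capping protein gene at 330 kb, was not called either (0.136 to 0.801). Tes, on the other side of the pair, was called in TDonly against ColGFP alone (0.70, adjusted p = 0.0263), and St7, at 387 kb, was lower there (-1.39, adjusted p = 4.22e-05) and higher in DBL than in TDonly (0.94, adjusted p = 0.000982). Tfec, a transcription factor gene farther out on the side of Tes, was read at 0.0763 to 0.202 CPM in DBL, 0.624 to 2.77 CPM in TDonly and 0.121 to 0.508 CPM in ColGFP. At these few counts it was called in the direction of the caveolins in TDonly against ColGFP (2.39, adjusted p = 0.0132) and in DBL against TDonly (-3.52, adjusted p = 0.00414), and not in DBL against ColGFP (-1.14, adjusted p = 0.41).

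Markers of cell types also differed between the populations, some in the order of Cav1 and others not. Of all tested genes, 14.5% were called in DBL against ColGFP, 29.9% in DBL against TDonly and 45.5% in TDonly against ColGFP. All 12 endothelial markers rose in DBL against ColGFP and in TDonly against ColGFP and fell in DBL against TDonly. Their summed level was 4556 to 5910 CPM in DBL, 13360 to 15010 CPM in TDonly and 886.9 to 1254 CPM in ColGFP, with none at 0. Within DBL, replicate 1 had the highest endothelial sum, while Cav1 and Cav2 were highest in replicate 3. Markers of alveolar type 1 epithelium, another cell type rich in caveolae, gave 1 call of 8 in DBL against ColGFP, Clic5, which was higher there. In DBL against TDonly 1 was higher and 2 lower, and in TDonly against ColGFP 5 were higher and 1 lower. The shares called were 12.5, 37.5 and 75% of these markers, the first 2 near those of all tested genes. Their sum was 1145 to 1247 CPM in DBL, 2096 to 2196 CPM in TDonly and 430 to 1085 CPM in ColGFP. Clic5 alone made up 54.2 to 57.4% of that sum in TDonly; without it the sums were 676.1 to 739.3 CPM in DBL, 893.8 to 1002 CPM in TDonly and 326.9 to 832 CPM in ColGFP. ColGFP replicate 1 had the highest Cav1, Cav2 and Sdpr of its population. It was also its highest library for the summed markers of alveolar type 1 epithelium (1085 CPM), endothelium (1254), lymphatic endothelium (112.9), alveolar type 2 epithelium (15210), leukocytes (2366) and smooth muscle (2940), and its lowest for fibroblast markers (19400). Most of that leukocyte sum was a single gene, Lyz2, which had 771.5 to 2258 CPM in ColGFP, where Ptprc had 30.67 to 39.5 CPM. Fibroblast markers ran opposite to the endothelial ones: 10 of 10 were lower in TDonly than in ColGFP and 10 of 10 higher in DBL than in TDonly, with adjusted p of 0.112 to 0.747 in DBL against ColGFP. Fibroblast markers thus had the directions of Prkcdbp in its 2 called contrasts, as did those of smooth muscle (8 of 8 lower in TDonly than in ColGFP, 8 of 8 higher in DBL than in TDonly) and, among pericyte markers, 4 of 7 in each contrast, with 2 of 7 higher in TDonly than in ColGFP. Between the lower-numbered libraries Prkcdbp was instead higher in TDonly than in ColGFP, at a log2 difference of 0.24. There the fibroblast sums were 1343 CPM in TDonly and 19400 CPM in ColGFP, and those of smooth muscle 310.4 and 2940 CPM. Pericyte sums were 528.3 to 715.7 CPM in DBL, 92.4 to 163.7 CPM in TDonly and 541.1 to 664 CPM in ColGFP. Of the mesothelial markers, 5 of 6 were higher in DBL than in TDonly, 5 of 6 higher in DBL than in ColGFP and 1 of 6, Krt19, higher in TDonly than in ColGFP, with sums of 548.6 to 631.9 CPM in DBL, 84.06 to 285.2 CPM in TDonly and 118.7 to 174 CPM in ColGFP. Alveolar type 2 markers summed to 9044 to 9594 CPM in DBL, 14500 to 16730 CPM in TDonly and 5072 to 15210 CPM in ColGFP. Of these 8 markers 0 were called in DBL against ColGFP. In DBL against TDonly 1 was lower, and in TDonly against ColGFP 1 was higher. Adipocyte markers were near the bottom of the scale, with sums up to 16.7 CPM. The part of these cell types in the members' differences was not tested. In sorted populations, fewer cells of a type and less RNA per cell cannot be told apart.

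The genes most like each member over the 9 libraries, among 8855 with a mean of at least 10 CPM, were ranked by Pearson's r of log2 CPM. This is a description only. The libraries differ in depth, core number series and population, and r was not adjusted for series or population. Ripply3, Klhl5 and Pik3cb reached 0.997 with Cav1, and Elovl5 0.996. Rap1a (0.997), Rala (0.994), Pvrl3 (0.993) and Tspan12 (0.991) were nearest to Cav2. Nadk (0.997) led for Ptrf before Jag1 (0.982), Frrs1 (0.976) and Baiap2 (0.974). Rac1 (0.998) led for Sdpr, before Tjp1, Gna14 and Inpp5b (0.993 each). Ampd2 and Dlg5 (0.987 each), Casp12 (0.982) and Adcy6 (0.981) were nearest to Prkcdbp. Between members, r was 0.988 for Cav1 with Cav2, 0.982 for Cav1 with Sdpr and 0.921 for Cav1 with Ptrf, and -0.612 for Cav1 with Prkcdbp.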

How the data were processed

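Values in the deposited table are whole-number read counts per gene symbol, left unnormalised by the authors. The submitters' processing notes name cutadapt for trimming, TopHat for alignment, mm10 as the build and HTSeq for counting, all without versions. Depletion of ribosomal RNA preceded sequencing, per the series' design text. The labels' extraction protocol describes flash-frozen lungs, and its relation to the sorted cells is not stated. Through the core number in the labels, 9 columns were matched to samples, and 3 columns that match none were left out. Strand setting and annotation of the counting step: not given in the sources used here. Of the 19348 gene symbols, 17345 matched GENCODE M21 directly and 1674 by a unique synonym.

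After filterByExpr (minimum count 10; 15550 genes), the 9 libraries entered 1 quasi-likelihood model in which each population had its own mean, in edgeR 4.0.16 under R 4.3.3, with limma 3.58.1 and TMM normalisation. Each of the 3 contrasts had a two-sided test, and p-values were adjusted by Benjamini-Hochberg over all tested genes. An SE was taken as the log2 fold change over the square root of F. CPM per kb used the union of annotated exons. Member ratios were compared by exact permutation over libraries. Low counts limit what can be said of Cav3 and Murc, and single libraries have no interval. On simulated counts for DBL against ColGFP, with genes of over 5 CPM shifted among 15384, the test found 78 of 100 genes shifted 2-fold and 100 of 100 shifted 4-fold, plus 8 false calls in 15184. Members, gene lists, markers and the rules for like patterns (the 4 highest r) and neighbours (starts within 500 kb) were chosen with earlier results of these data known.

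The alternatives varied the scaling (DESeq2 size factors, upper-quartile factors, totals), the test (DESeq2 1.42.0, voom in limma, or edgeR against a minimum log2 fold change of 1), the filter (none, or 10 CPM in 3 libraries), and the samples and terms. The last kind comprised the contrasted pair alone, a block for replicate number, core number series as a term or its higher part alone, removal of the 20 most abundant genes, and omission of each library.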

Additional observations from a re-analysis of the deposited data

How the results depend on the processing

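Cav1 and Sdpr in all 3 contrasts, Cav2 against ColGFP and Ptrf in TDonly against ColGFP kept direction and call in every alternative except edgeR's test against a log2 fold change of 1. In that test the members called fell to 0 of 5 in DBL against ColGFP, 0 in DBL against TDonly and 3 in TDonly against ColGFP (Cav1, Cav2 and Sdpr), while 309, 951 and 2381 of all genes were called, against 2256, 4657 and 7082 in the test against no change. Leaving out single libraries gave 3 to 4, 2 to 4 and 4 to 5 members called in the 3 contrasts, the 2 arising without TDonly replicate 2. Over all genes, DBL against ColGFP gave 1478 calls without ColGFP replicate 2, 1468 without ColGFP replicate 3 and 4512 within the higher core numbers. There Prkcdbp in DBL against ColGFP turned to -0.019 (adjusted p = 0.924), and its log2 ratio to Ptrf in that contrast ranged from -0.30 to 0.012 over left-out libraries. Upper-quartile factors left Ptrf in DBL against ColGFP at an adjusted p of 0.0587, and a fit to only the 2 populations left Prkcdbp in TDonly against ColGFP at 0.073. Library totals moved the median of all genes to 0.057, -0.13 and 0.164, and the higher share of calls to 64.8, 48.5 and 59.3%, against 55.4, 57.8 and 47.4% with TMM factors; no member changed direction under any scaling. The cause of these changes was not tested. DESeq2, limma-voom, the other filters, the covariate and the removal of the 20 most abundant genes changed no member's call.

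Whether the replicate numbers pair the samples cannot be decided from 2 or 3 pairs per contrast. Libraries with the same number deviated together with r of 0.0156 to 0.0926 in DBL and ColGFP (2 pairs). In DBL and TDonly r was 0.232 to 0.527 (2 pairs), and in TDonly and ColGFP 0.045 to 0.102 (3 pairs). Of the TDonly and ColGFP libraries, 5 of 6 correlated best with their own number. Among the TDonly libraries, DBL replicate 1 correlated best with replicate 1 (0.527). DBL replicate 3 had a lower r with TDonly replicate 3 (0.232) than with TDonly replicate 2 (0.306). Replicate 1 is also the whole of the lower core numbers, so number and core series coincide there. With the replicate number as a block, 3, 2 and 4 members and 1581, 3594 and 6483 genes were called in the 3 contrasts, and the calls lost were Ptrf in DBL against ColGFP (0.132), Cav2 (0.136) and Prkcdbp (0.091) in DBL against TDonly and Prkcdbp in TDonly against ColGFP (0.0822).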
